A study of Mus musculus with 12 samples.

Results

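Every ribosome is built from ribosomal RNA and one copy of nearly all of the cytosolic ribosomal proteins, so the mRNAs of these proteins are among the most abundant of a growing cell. The 86 genes described here are the protein-coding mouse genes of GENCODE M21 whose symbols start with Rpl or Rps and a number, with Rplp0, Rplp1, Rplp2 and Rpsa, out of 35523 genes with values. Kinases of the Rps6k family, pseudogenes and unnamed copies were left out, and 51 of the genes belong to the large subunit and 33 to the small one. The remaining 2 were taken by the letters of their symbols only, since Rps19bp1 encodes a protein that binds a ribosomal protein and Rpl7l1 a relative of Rpl7 that works in ribosome assembly.

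The cells were the stromal vascular fraction (SVF), the non-adipocyte cells of fat that include progenitors and macrophages, from epididymal fat of male ob/ob mice (Lepob/Lepob, lacking functional leptin) aged 12 weeks. All cells were differentiated in culture for 4 days with IBMX, dexamethasone and insulin, and received either 1 µM rosiglitazone (Rosi), an agonist of the adipogenic nuclear receptor PPARγ, or DMSO vehicle (Veh). Before lysis all cells were held with cycloheximide, which keeps ribosomes on mRNA. Total RNA (input) and RNA of the pooled heavy fractions of a sucrose gradient (polysome) were sequenced, which gave 4 groups of 3 deposited libraries each. Replicates 2 and 3 of input Veh were identical and counted once, so that n = 2 for input Veh and n = 3 for the other groups, at 17446517 to 24016101 estimated reads per library.

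These are mixed cultures rather than pure adipocytes. The summed level of 7 macrophage markers was 13523 to 24104 TPM in every library, where TPM is a level corrected for transcript length and scaled to the library. Most of that sum was Lyz2, with a mean of 13487 TPM over the 11 libraries. The 4 smooth muscle markers summed to 6245 to 10019 TPM. Most of this was Tagln and Acta2, with means of 4292 and 3556 TPM over the 11 libraries. Cnn1 had a mean of 296 TPM and Myh11 of 9.80 TPM. The epididymis marker Crisp1 had 78 to 269 TPM. The 5 adipocyte markers summed to 128 to 147 TPM in input Veh and to 1108 to 1163 TPM in input Rosi. Most of this was Fabp4, with means of 130 TPM in input Veh and 903 TPM in input Rosi. Adipoq, Cidec, Plin1 and Lipe had means of 0.50, 0.56, 1.23 and 5.01 TPM in input Veh. In input Rosi they had 41.5, 137, 31.7 and 24.9 TPM. The macrophage sum was 18267 to 19492 TPM in input Veh and 13523 to 15287 TPM in input Rosi, and its part in any difference between Veh and Rosi below was not tested. The 3 lymphocyte markers together stayed at or below 0.10 TPM in all 11 libraries. In such bulk RNA, fewer cells of a type and less RNA per cell cannot be told apart.

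Ribosomal protein mRNAs belong to the TOP mRNAs, so called for a tract of pyrimidines (C and T in DNA letters) at their 5′ end, through which growth signals adjust their loading onto ribosomes. RefSeq start windows on GRCm38.p6 were available for 66 of the 86 genes. A run of at least 8 pyrimidines lay within 20 bases of a start in 30 of these 66 genes (45.5%), against 18.4% of 27025 genes with a window of the same length. In the deposited transcript models, 12 of 84 tested ribosomal protein genes (14.3%) began with a C followed by at least 4 pyrimidines, against 2.33% of 13452 other tested genes. Annotated starts need not be the starts used in these cells. The windows of 3 genes with the lowest polysome share, of Rpl38, and of the near-identical pair Rps27 and Rps27rt are shown from 15 bases before to 15 bases into the annotated transcript, with the longest pyrimidine run in capitals.
Rplp0 (chr5:115559452-115559481, plus strand): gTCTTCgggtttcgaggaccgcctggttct
Rpsa (chr9:120127751-120127780, plus strand): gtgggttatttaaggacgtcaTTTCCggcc
Rps2 (chr17:24720048-24720077, plus strand): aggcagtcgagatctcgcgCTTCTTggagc
Rpl38 (chr11:114668565-114668594, plus strand): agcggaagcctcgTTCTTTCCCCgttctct
Rps27 (chr3:90213634-90213663, minus strand): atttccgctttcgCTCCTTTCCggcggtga
Rps27rt (chr9:114982725-114982754, minus strand): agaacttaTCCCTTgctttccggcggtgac
The longest run was 10 bases in Rpl38 and 9 in Rps27, against 5 in Rplp0 and Rpsa and 6 in Rps2 and Rps27rt. In Rps27rt another run of 6, left in small letters, began at the first base of the annotated transcript. The most abundant transcripts of Rps27 and Rps27rt matched over 341 bases at 100% identity.

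Ribosomal protein genes were near the top of the expression range. By mean TPM over the 11 libraries, 68 of the 86 genes lay above 1000 TPM, 80 above 100 TPM, and 41 were among the 100 most abundant of all genes. The highest were Rpl13a (7359 TPM), Rplp1 (5198 TPM), Rps14 (3835 TPM), Rpl23a (3177 TPM) and Rpl41 (3165 TPM). This ranking depends on the length correction, which is large for short transcripts. The most abundant Rpl13a transcript had 389 bases, beside implied mean fragments of 323 to 332 bases. By counts scaled to library size (CPM), Rps2 (1438 CPM) and Rplp0 (1395 CPM) lay above Rplp1 and Rps14 (961 CPM each). Rpl13a, a large subunit protein, had 8192 and 10087 TPM in input Veh, 8024 to 8749 TPM in input Rosi, 5927 to 6720 TPM in polysome Veh and 5750 to 6596 TPM in polysome Rosi. Rpl23a and Rpl41 did not differ in level beyond their spread between libraries, nor did Rps18 (3053 TPM) just below them. The median level was 1461 TPM for large and 1842 TPM for small subunit genes.

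At the other end were Rpl10l, with no reads in any library, Rpl3l (0.0481 TPM), Rpl39l (1.87 TPM), Rpl5 (43.0 TPM) and Rpl12 (56.7 TPM). Rpl10l, Rpl3l and Rpl39l are paralogs known mainly from testis or striated muscle, and their parents Rpl10 (1608 TPM), Rpl3 (1290 TPM) and Rpl39 (1530 TPM) carried the signal. Rpl3l and Rpl10l did not pass the count filter of any comparison and Rpl39l not that of the polysome libraries, which left 84 or 83 genes tested. Other paralogs were well expressed. Rpl36al, an autosomal relative of X-linked Rpl36a, had 1278 TPM against 960 TPM for Rpl36a, Rps27l had 1115 TPM beside 1212 TPM for Rps27, and Rpl22l1 had 505 TPM beside 1706 TPM for Rpl22.

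The low values of Rpl5 and Rpl12 came with reads placed on pseudogenes. Rpl5 binds the 5S ribosomal RNA, and its symbol had a mean of 52.5 CPM (counts scaled to library size), while Gm15500, a pseudogene identical to its transcript over 1018 bases, had 878 CPM. Rpl12, a protein next to the stalk of the large subunit, had 30.3 CPM against 804 CPM for Gm10275, which was identical to it over 634 bases. Of all reads on a ribosomal protein gene and the pseudogenes that match it, the pseudogenes held 96.4% for Rpl12, 94.4% for Rpl5, 64.2% for Rpl27a, 52.7% for Rps23 and 51.1% for Rpl31. The share was 5 to 50% for 11 other genes and under 5% for 69. For these 5 genes the level of the symbol is therefore no measure of the mRNA, and their fold changes between polysome and input are given below with the pseudogenes added.

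The same holds within the pair Rps27 and Rps27rt. Rps27 had 147 and 191 CPM in input Veh, 146, 90.7 and 75.3 CPM in input Rosi, 135, 143 and 33.1 CPM in polysome Veh and 65.4, 135 and 117 CPM in polysome Rosi. Rps27rt ran the other way, with its highest polysome Veh value (155 CPM) in replicate 3, where Rps27 was lowest, and its lowest (56.3 CPM) in replicate 2, where Rps27 was highest. Their sum was far steadier, at 245 and 305 CPM in input Veh, 264, 258 and 215 CPM in input Rosi, 250, 199 and 188 CPM in polysome Veh and 184, 214 and 241 CPM in polysome Rosi, so the split between the 2 symbols is uncertain in every comparison.

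Summed over all 86 genes, ribosomal protein mRNAs held a share of the estimated reads of 4.88 and 5.50% for input Veh, 5.17, 5.23 and 4.79% in input Rosi, 4.95, 4.66 and 4.10% in polysome Veh and 4.04, 4.75 and 4.74% in polysome Rosi. By TPM, which counts transcripts rather than reads, the share was 15.98% ± 1.01 (SD, n = 2) in input Veh, 15.7% ± 0.50 (n = 3) in input Rosi, 13.98% ± 1.02 (n = 3) in polysome Veh and 13.9% ± 0.98 (n = 3) in polysome Rosi. The polysome libraries lay lower than the input libraries by TPM in all 6, and Veh and Rosi overlapped within each fraction. Rplp0, Rpsa, Rps2 and Rplp1, chosen after their values were seen, made up most of the gap in reads. Together these 4 genes took 0.708% ± 0.059 (n = 2) of estimated reads in input Veh against 0.300% ± 0.028 (n = 3) in polysome Veh, and without them the share was 4.48% ± 0.38 in input Veh and 4.27% ± 0.45 in polysome Veh.

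**Figure D1:**
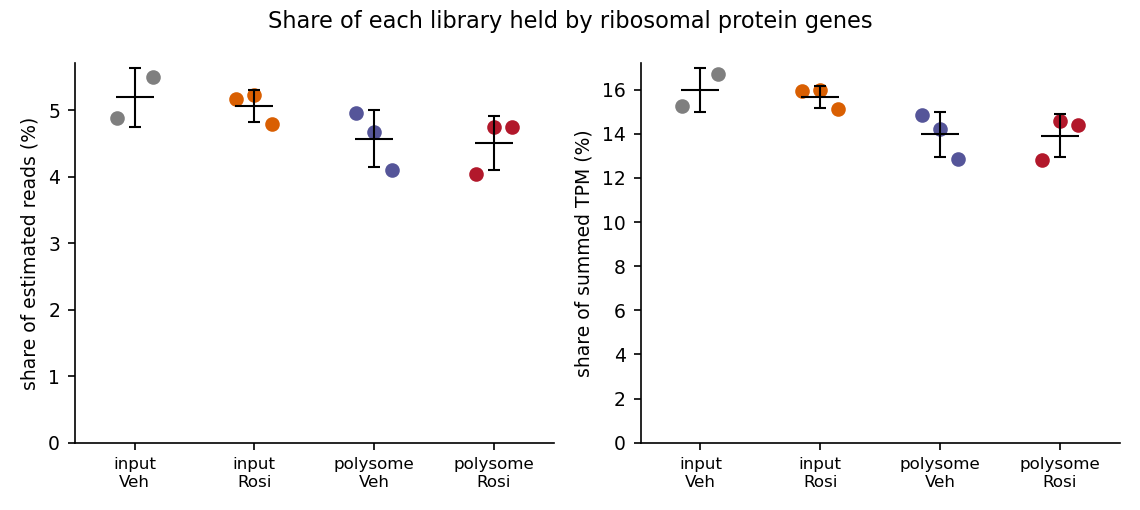
Share of estimated reads (left) and of summed TPM (right) held by the 86 ribosomal protein genes, in percent. Points are libraries, bars are mean and SD, and by TPM the 6 polysome libraries (12.8 to 14.8%) lie below the 5 input libraries (15.1 to 16.7%).

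The comparison of polysome with input asks which of these mRNAs were carried by many ribosomes. It measures each mRNA relative to the other mRNAs of its library, so it says nothing about how much RNA the polysomes held in all. Ribosomal protein mRNAs did not behave as a block here. In Veh, 25 of 84 were lower and 7 higher in polysomes than in input, and in Rosi 21 were lower and 15 higher. Calls used edgeR's quasi-likelihood test, with an adjusted p below 0.05 and a log2 change of more than 0.2 in size. Across all 14042 genes tested, 24.6% were called lower and 24.7% higher in Veh, and 26.0% lower and 29.1% higher in Rosi. The share of ribosomal protein genes called lower was near that background, while the share called higher (8.33% in Veh and 17.9% in Rosi) was smaller than it. The median log2 polysome over input was −0.22 in Veh beside 0.02 for all genes, and 0.01 in Rosi beside 0.00 for all genes. The Rosi median was −0.06 to 0.02 over the other settings that used all libraries. The Veh median was −0.10 without input Veh replicate 2, −0.14 without polysome Veh replicate 3 and −0.35 without input Veh replicate 1. The Veh counts moved with single polysome libraries, to 37 lower and 3 higher without polysome Veh replicate 1 (44.7% of all genes called). They were 18 and 9 without polysome Veh replicate 3 (52.4%), and 49.3% of all genes were called with all libraries. Leaving out an input Veh library leaves 1 in that group, so no counts are given for it. Large and small subunit genes had medians of −0.23 and −0.22 in Veh and of 0.01 and −0.07 in Rosi.

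Rplp0, Rpsa, Rps2 and Rplp1 stood below all other ribosomal protein genes in both treatments. They were the 4 genes lower by more than 1 on the log2 scale, in Veh (6.68% of all genes) and in Rosi (4.86%), and none was higher by that much (2.99% and 6.49% of all genes). Rplp0 is the protein on which the flexible stalk of the large subunit is built, and Rplp1 and Rplp2 are the stalk proteins bound to it. Rplp0 had 2056 and 2276 CPM in input Veh, 2378, 2183 and 2038 CPM in input Rosi, 689, 921 and 871 CPM in polysome Veh and 693, 639 and 602 CPM in polysome Rosi. Every polysome library lay far below every input library, and the log2 fold change was −1.39 ± 0.12 (SE, adjusted p = 7.66e-07, edgeR) in Veh and −1.77 ± 0.11 (adjusted p = 1.46e-07) in Rosi.

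Rplp1 had 1231 and 1516 CPM in input Veh and 1529, 1410 and 1251 CPM in input Rosi, against 635, 759 and 653 CPM in polysome Veh and 537, 502 and 550 CPM in polysome Rosi. Its log2 polysome over input was −1.01 ± 0.12 in Veh and −1.40 ± 0.11 in Rosi. Rplp2, the other stalk protein, moved much less. Its values were 607 and 692 CPM in input Veh, 659, 584 and 518 CPM in input Rosi, 503, 532 and 477 CPM in polysome Veh and 433, 502 and 492 CPM in polysome Rosi. It was lower in polysomes by −0.37 ± 0.11 in Veh (adjusted p = 0.0142) and −0.30 ± 0.10 in Rosi (adjusted p = 0.0196, edgeR).

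Rpsa, a small subunit protein that also serves as a laminin receptor, had 1723 and 1956 CPM in input Veh, 2023, 1905 and 1749 CPM in input Rosi, 604, 657 and 639 CPM in polysome Veh and 586, 569 and 542 CPM in polysome Rosi. Rps2, a small subunit protein near the mRNA entry, had 2094 and 2501 CPM in input Veh, 2394, 2143 and 2024 CPM in input Rosi, 762, 839 and 802 CPM in polysome Veh and 761, 777 and 716 CPM in polysome Rosi. Input and polysome were widely separated for both genes and treatments. The fall was 2.91-fold in Veh and 3.34-fold in Rosi for Rpsa, and 2.87-fold and 2.91-fold for Rps2. Leaving out any 1 library kept the log2 fold changes of Rplp0, Rpsa and Rps2 below −1.28 in both treatments, and those of Rplp1 at −1.15 to −0.85 in Veh and −1.47 to −1.33 in Rosi.

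**Figure D2:**
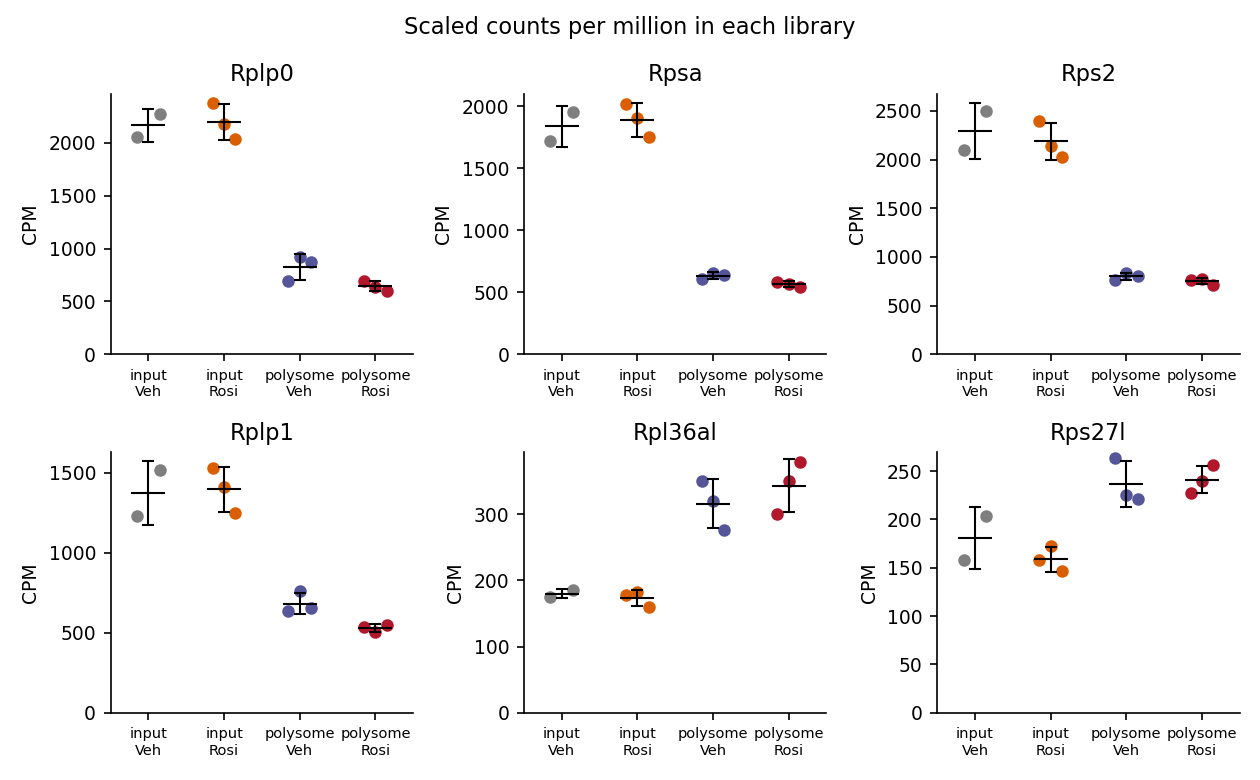
Scaled counts (CPM) of 6 genes in each library of the 4 groups, with mean and SD (n = 2 for input Veh, n = 3 otherwise). Rplp0, Rpsa, Rps2 and Rplp1 are low in all 6 polysome libraries and Rpl36al and Rps27l are high in them.

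A second tier of genes was lower in polysomes by 1.5-fold to 1.8-fold. Rps12, a small subunit protein, had 757 and 852 CPM in input Veh, 816, 876 and 759 CPM in input Rosi, 594, 558 and 456 CPM in polysome Veh and 396, 505 and 486 CPM in polysome Rosi. Its log2 fold change was −0.59 ± 0.13 in Veh and −0.82 ± 0.12 in Rosi. Rpl3, which lies at the peptidyl transferase centre, changed by −0.59 ± 0.10 and −0.71 ± 0.09, with 1293 to 1455 CPM in the input and 760 to 1003 CPM in the polysome libraries. Rps10 (−0.64 and −0.71 in Veh and Rosi) and Rpl8 (−0.79 and −0.68) were lower in both treatments too. Rpl13a fell by 0.61 on the log2 scale in Veh. Its value was −0.39 without input Veh replicate 2, which leaves 1 library in that group.

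In all, 20 genes were lower and 7 higher in polysomes in both treatments, 43 were called in neither, and none was called in opposite directions. Of all 14042 genes, 20.8% were lower in both, 21.5% higher in both, 37.9% called in neither and 0.0285% called in opposite directions, so the share of ribosomal protein genes lower in both (23.8%) was near that of all genes. Among those lower in both were Rpl3, Rpl8, Rpl10a, Rpl13, Rpl13a, Rplp0, Rplp1 and Rplp2 of the large subunit and Rps2, Rps3, Rps10, Rps12 and Rpsa of the small one. Over the 84 genes, polysome over input in Veh and in Rosi had a Pearson correlation of 0.91 and a Spearman correlation of 0.84, across genes that share libraries and are not independent replicates.

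The gene highest in polysomes was the paralog Rpl36al. It had 175 and 185 CPM in input Veh, 178, 182 and 159 CPM in input Rosi, 351, 320 and 277 CPM in polysome Veh and 300, 350 and 379 CPM in polysome Rosi. Each polysome library exceeded each input library, and the log2 fold change was 0.81 ± 0.12 in Veh (adjusted p = 8.33e-05) and 0.99 ± 0.11 in Rosi (adjusted p = 3.22e-06, edgeR). Its parent Rpl36a had 175 and 187 CPM in input Veh against 205, 178 and 139 CPM in polysome Veh, which was no call (−0.06 ± 0.15). In Rosi the parent rose from 153, 146 and 132 CPM in input to 151, 199 and 205 CPM in polysomes (0.36 ± 0.14, adjusted p = 0.0348, edgeR). With its pseudogenes added, that value was 0.19 (adjusted p = 0.222). The most abundant transcripts of Rpl36a and Rpl36al were 87.7% identical over 332 aligned bases.

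Rps27l, a paralog of Rps27, was also higher in polysomes. It had 158 and 204 CPM in input Veh, 158, 172 and 146 CPM in input Rosi, 264, 225 and 221 CPM in polysome Veh and 228, 240 and 256 CPM in polysome Rosi. The log2 fold change was 0.39 ± 0.13 in Veh and 0.60 ± 0.11 in Rosi, and the Veh call was lost without polysome Veh replicate 1 (0.29). Without input Veh replicate 1, which leaves 1 library in that group, the Veh value was 0.22. The summed Rps27 and Rps27rt reads were no higher in polysomes, at 188 to 250 CPM against 215 to 305 CPM in input. Rpl22l1, the paralog of Rpl22, changed by −0.22 ± 0.15 in Veh and 0.03 ± 0.13 in Rosi, while Rpl22 changed by 0.14 ± 0.14 and rose by 0.52 ± 0.13 (adjusted p = 0.00295, edgeR).

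The other genes higher in both treatments were Rpl7 (0.47 and 0.51 in Veh and Rosi), Rps27a (0.41 and 0.46), which is made as a fusion with ubiquitin, Rpl23 (0.40 and 0.44), Rpl7l1 (0.25 and 0.41) and Rpl5 (0.58 and 0.60). The Veh calls of Rps27a, Rpl23 and Rpl7l1 were lost without polysome Veh replicate 1. Those of Rpl23 and Rpl7l1 were lost without polysome Veh replicate 2 as well. That of Rpl7l1 was lost with RLE factors (0.24), a replicate block (0.25) and no count filter (0.25) too. Leaving out an input Veh library leaves 1 in that group, so only the size of the change is given for it. With any 1 input or polysome library left out, the Veh values were 0.31 to 0.56 for Rpl7 and 0.30 to 0.51 for Rps27a. They were 0.28 to 0.51 for Rpl23 and 0.21 to 0.29 for Rpl7l1. The call of Rpl5 ended in both treatments once its pseudogenes were added. Rpl5 and its pseudogenes had 889 and 949 CPM in input Veh and 1125, 926 and 864 CPM in polysome Veh. The change was then 0.08 on the log2 scale in Veh (adjusted p = 0.6) and 0.11 in Rosi (adjusted p = 0.407, edgeR). For Rpl12 the pseudogenes worked the other way, taking its log2 fold change from −0.43 to −0.72 in Veh and from −0.41 to −0.70 in Rosi. With them, Rpl12 had 984 and 1180 CPM in input Veh and 750, 648 and 568 CPM in polysome Veh. Rpl27a, Rps23 and Rpl31 were not called with or without their pseudogenes, and with them changed by −0.07, 0.13 and −0.23 in Veh and by 0.09, 0.22 and 0.08 in Rosi.

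**Figure D3:**
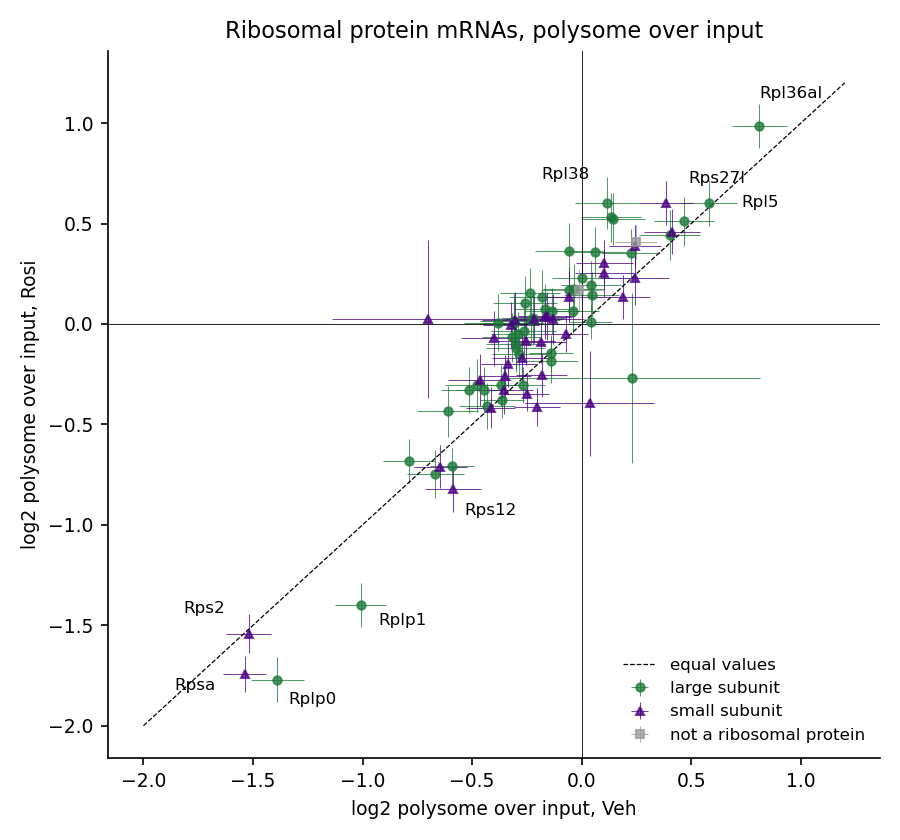
Log2 polysome over input in Veh (x axis) and in Rosi (y axis) of the 84 tested genes, with SE bars; the dashed line marks equal values. Rplp0, Rpsa, Rps2 and Rplp1 lie apart at the lower left and Rpl36al at the upper right, while most genes lie between −0.5 and 0.5 in both treatments.

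The polysome pool holds mRNAs with several ribosomes, so the length of the coding sequence could bear on it. Rpl41, Rpl39, Rps29, Rps28 and Rpl38 encode the shortest of these proteins, beside Rpl39l, which has the length of Rpl39, was at under 1 CPM and was not called (0.23 ± 0.58 in Veh and −0.27 ± 0.42 in Rosi). In Veh none of the 5 was called, at −0.27 ± 0.15, −0.38 ± 0.16, −0.19 ± 0.11, −0.27 ± 0.14 and 0.11 ± 0.15. In Rosi the values were −0.03 ± 0.13 for Rpl41, 0.01 ± 0.14 for Rpl39, −0.09 ± 0.10 for Rps29 and −0.17 ± 0.12 for Rps28, and only Rpl38 of the 5 was called (0.60 ± 0.13, adjusted p = 0.00108, edgeR). By the longest annotated protein of each gene, the 10 genes under 100 residues had a median of −0.16 in Veh and 0.02 in Rosi, the 48 genes of 100 to under 200 residues −0.18 and 0.04, and the 25 genes of 200 residues or more −0.29 and −0.30. The medians of other genes in the same length classes were 0.50 and 0.64, 0.37 and 0.43, and −0.05 and −0.07. In both treatments the medians of the shorter ribosomal protein mRNAs lay below those of other mRNAs of like coding length, a difference that was not tested.

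The correlation with log2 coding length across 83 genes with at least 10 TPM was −0.20 in Veh and −0.31 in Rosi by Pearson, and −0.15 and −0.30 by Spearman. It was −0.25 and −0.38 by Pearson with the longest coding sequence of the gene. Rpl4, which encodes the longest of these proteins (419 residues), was not called, at −0.14 in Veh and −0.15 in Rosi, while Rpl3 (403 residues) was lower in both. Genes with and without a pyrimidine run at a RefSeq start overlapped. The 30 genes with a run had a median polysome over input of −0.26 in Veh and 0.01 in Rosi, and the 34 tested genes with a window and no run −0.14 and 0.01.

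**Figure D4:**
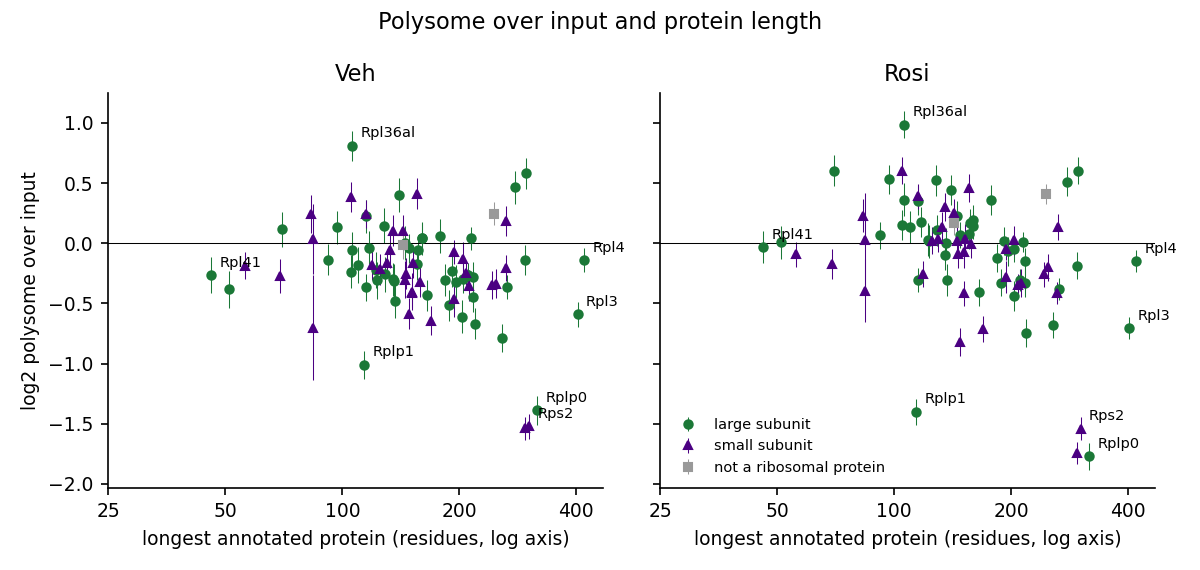
Log2 polysome over input with SE against the longest annotated protein (residues, log axis) in Veh (left) and Rosi (right), for 83 genes with at least 10 TPM. Rplp0, Rps2 and Rpsa, at about 300 residues, and Rplp1, at 114, lie far below genes of like length.

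Rosi was then compared with Veh in each fraction. In input, 0 of 84 ribosomal protein genes were called, against 1.34% of 13603 genes (182 genes). At an unadjusted p under 0.05, 1 was higher and 8 were lower (9.2% and 7.79% of all genes). The median log2 fold change was −0.09 beside 0.01 for all genes, with a typical SE of 0.097 per gene, and 63 of 84 values were below 0. That lean rested on few libraries, as the median was 0.02 without input Veh replicate 2. DESeq2 called 1 gene of the set, Rps27rt, and 2.83% of all genes.

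The smallest p-values in input were those of the pair with shared sequence, Rps27 (−0.64 ± 0.20, adjusted p = 0.14) and Rps27rt (0.49 ± 0.14, adjusted p = 0.11, edgeR), in opposite directions. Rpl36a (−0.27 ± 0.09) and Rpl37 (−0.25 ± 0.10) followed, with an adjusted p of 0.164 and 0.218 (edgeR). On the higher side were Rpl39l (1.19 ± 0.56, at under 1 CPM) and Rps4x (0.14 ± 0.09). Without input Rosi replicate 1, 1 gene was called higher (Rps27rt) and 7 lower (Rps27, Rpl38, Rps15, Rps14, Rpl36a, Rpl10a and Rpl28, by 0.30 to 0.95 on the log2 scale), while 11.7% of all genes were called.

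In the polysome fraction, 0 of 83 genes were called between Rosi and Veh, against 0.655% of 13436 genes (88 genes). At an unadjusted p under 0.05, 0 were higher and 3 lower (2.56% and 2.17% of all genes), and the median was −0.02, or −0.10 to 0.08 with 1 library left out. These 3 were Rplp1 (−0.38 ± 0.11, adjusted p = 0.37), Rplp0 (−0.37 ± 0.12, adjusted p = 0.602) and Rps10 (−0.24 ± 0.11, adjusted p = 1.00, edgeR). For Rplp1 the polysome Rosi libraries lay below all polysome Veh libraries, whereas those of Rplp0 and Rps10 overlapped. Rplp0 was called without polysome Veh replicate 1 (−0.48), as the only gene of the set, while 1.31% of all genes were called. Of the values above 0, those with the smallest p were Rpl36 (0.13 ± 0.12), Rpl38 (0.12 ± 0.13) and Rpl36al (0.11 ± 0.12). All 83 values lay between −0.38 and 0.13.

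**Figure D5:**
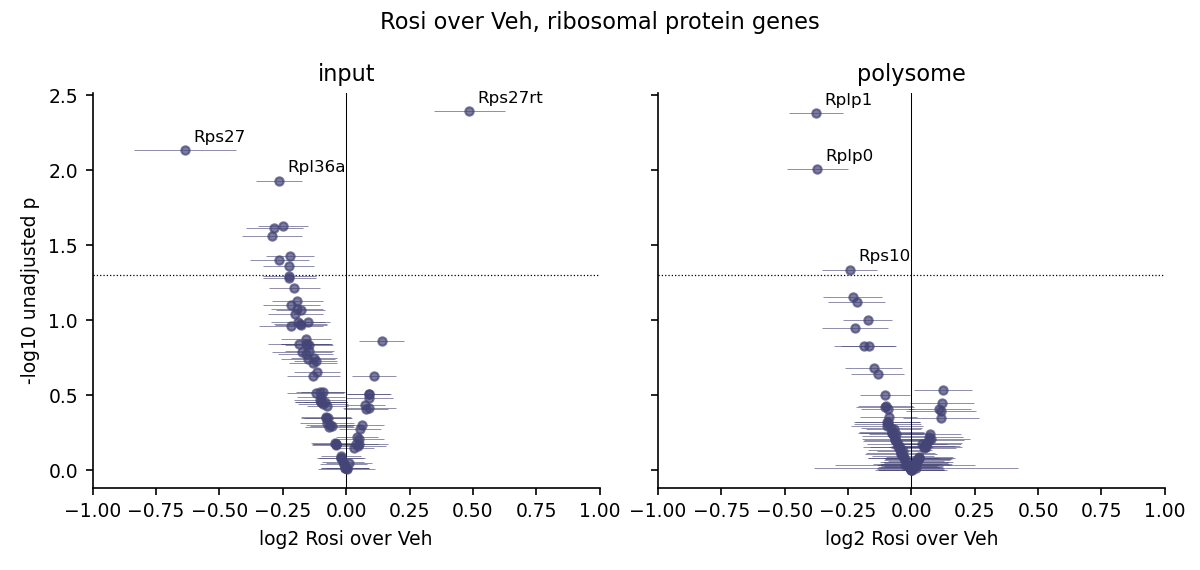
Log2 Rosi over Veh with SE (x axis) and −log10 of the unadjusted p (y axis) in input (left) and polysome (right), for tested genes other than Rpl39l; the dotted line marks an unadjusted p of 0.05. In input most points lie left of 0 and the pair Rps27 and Rps27rt stands apart on both sides, and in polysome Rplp1 and Rplp0 are lowest in p.

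The study picked Rpl11, Rpl19, Rpl23a, Rps3a1, Rps14 and Rps27a from other data, for PPARγ binding near them. None was called between Rosi and Veh in these cultures. The study reported higher ribosomal protein mRNAs in single progenitors and preadipocytes of mice given Rosi. It also reported higher ribosomal proteins in differentiated inguinal SVF. Those cells, treatments or measures differ from the bulk epididymal mRNA here, so these values do not test that result. Rps14 was called lower in input with no count filter (−0.28, adjusted p = 0.0378) and without input Rosi replicate 1 (−0.35, adjusted p = 0.0336, edgeR). In input Rosi over Veh was −0.16 ± 0.10 for Rpl11, −0.18 ± 0.10 for Rpl19, −0.15 ± 0.09 for Rpl23a, 0.04 ± 0.09 for Rps3a1, −0.28 ± 0.11 for Rps14 and 0.06 ± 0.09 for Rps27a. In polysomes all 6 lay between −0.09 and 0.06.

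Whether Rosi shifted the mRNAs between the fractions was tested as the interaction of fraction and treatment, at a log2 threshold of 1. No ribosomal protein gene was called, and 0.0% of all 14042 genes, also with a threshold of 0.2. The median interaction was 0.15 beside 0.06 for all genes (0.05 beside −0.03 by limma on TPM), and 63 of 84 values were above 0, against 59.1% of all genes. Without input Veh replicate 2 the median was 0.02 beside 0.05 for all genes, with 52 of 84 values above 0, and it was 0.06 without polysome Veh replicate 3, 0.09 without polysome Rosi replicate 3, 0.24 without polysome Rosi replicate 1 and 0.25 without input Veh replicate 1. At an unadjusted p under 0.05, 2 genes were higher and 2 lower (4.46% and 2.39% of all genes). Lower were Rplp1 (−0.39 ± 0.16, adjusted p = 0.719) and Rplp0 (−0.38 ± 0.17, adjusted p = 0.719), followed by Rpsa (−0.20 ± 0.13). Higher were Rpl38 (0.49 ± 0.19) and Rpl37 (0.40 ± 0.18), followed by Rpl36 (0.39 ± 0.18), all with an adjusted p of 0.719 (edgeR). For Rpl38 the input values were 170 and 211 CPM in Veh and 171, 145 and 130 CPM in Rosi, while the polysome values overlapped at 218, 212 and 189 CPM in Veh and 188, 234 and 256 CPM in Rosi. The 8 genes called higher in polysomes in Rosi and not in Veh (7.62% of all genes), among them Rpl11, Rpl22, Rpl36a, Rpl37 and Rpl38, are therefore not shown to differ between the treatments.

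The other parts of the translation machinery give a scale for these values. Of ribosomal proteins with other symbols, Rack1, a scaffold on the small subunit, was lower in polysomes by 0.74 on the log2 scale in Veh and 0.86 in Rosi, in the range of the second tier. Its values were 1427 and 1579 CPM in input Veh and 909, 956 and 840 CPM in polysome Veh. Fau, made as a fusion with a relative of ubiquitin, was not called in either treatment.

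Among 19 other TOP mRNAs, a list that holds Rack1 and Fau too, 10 were lower and 4 higher in polysomes in Veh (median −0.32), and 11 lower and 4 higher in Rosi (median −0.30). The shares of all genes called lower and higher were 24.6% and 24.7% in Veh and 26.0% and 29.1% in Rosi. The elongation factor Eef2 was lower by 1.34 and 1.41 on the log2 scale in Veh and Rosi and Eef1g by 0.96 and 1.03, whereas Npm1 was higher by 0.69 and 0.80 and Naca by 0.65 and 0.85. Of the 19, Pabpc1, the poly(A) binding protein, was the only one called between Rosi and Veh in input (0.52, adjusted p = 0.0162, edgeR). None of the 30 ribosome biogenesis genes was called between Rosi and Veh in either fraction (median −0.04 in input and −0.01 in polysomes). Of these 30, 16 were lower and 8 higher in polysomes in Veh, and 14 and 9 in Rosi.

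Mitochondrial ribosomal proteins, encoded in the nucleus and translated by cytosolic ribosomes, were higher in polysomes in 27 of 78 genes and lower in 5 in Veh (median 0.21). In Rosi 47 were higher and 4 lower (median 0.37). Of all genes, 24.7% were called higher and 24.6% lower in Veh, and 29.1% higher and 26.0% lower in Rosi. No mitochondrial ribosomal protein gene was called between Rosi and Veh in either fraction (median −0.08 in input and 0.02 in polysomes). The cytosolic set had 7 and 15 genes higher in polysomes of 84, and the difference between these sets was not tested.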

How the data were processed

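The data were poly(A) RNA-seq libraries of input and polysome RNA. Per the submitters' notes and methods, Salmon quantified the reads against mm10, after bcl2fastq 2.17 and FastQC, and the authors tested with DESeq2; the versions of the other tools and the strandedness were not given in the sources used here. The authors deposited an estimated count and a TPM for each of 117135 transcripts. The deposited estimated counts were summed to 35523 genes of GENCODE M21, rounded and tested; transcripts that matched no gene held 0.381 to 0.464% of reads. The deposited TPM was summed for levels between genes.

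Libraries titled eWAT rather than input were taken as the polysome pool. The series text gives a shorter differentiation than the 4 days of the protocols. Groups came from the sample titles. The labels call the replicates biological but do not say what was separate, so p-values measure only the spread between these libraries.

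Genes were tested in R 4.3.3 by edgeR 4.0.16 (two-sided quasi-likelihood test; filterByExpr; TMM factors), with Benjamini-Hochberg adjustment over all genes tested. Input and polysome were fitted alone for Rosi over Veh, and all 4 groups together for polysome over input and the interaction. Calls needed an adjusted p below 0.05 and a log2 change of more than 0.2 in size, or more than 1 for the interaction. SE is the size of the log2 change divided by the root of the F statistic, and CPM uses the joint fit's scaling. Libraries held 17446517 to 24016101 estimated reads.

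Genes named were, per comparison, up to 8 called in each direction or, with none called, the 3 of smallest p each way, the 5 highest and 5 lowest by TPM, paralogs, the stalk proteins, Rpsa, the shortest proteins and the study's picks near PPARγ sites. Other names followed from a count or a pseudogene and were chosen after their values were seen. Members and lists were chosen with earlier results of these data known. Pseudogenes were matched with blastn 2.17.0 at 90% identity over 150 bases, giving 1120. Sequences are from RefSeq (GRCm38.p6). Alternatives were DESeq2 1.42.0, limma 3.58.1 on log2(TPM + 1), RLE, upper quartile or TMM factors without these genes, 2 other filters, protein-coding transcripts only, pseudogenes added by name or by sequence, a replicate block, all 12 libraries, 1 fit of all groups, other fold thresholds and each library left out. Results for some genes are not reported here.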

Additional observations from a re-analysis of the deposited data

Results flagged for a closer look

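Reads on pseudogenes, which the comparisons by gene symbol do not use, stood out for 5 genes, where the pseudogenes that match a gene held more reads than the gene itself. They held 96.4% of the reads of both for Rpl12, 94.4% for Rpl5, 64.2% for Rpl27a, 52.7% for Rps23 and 51.1% for Rpl31. The share was steady over the 11 libraries, at 95.5 to 96.8% for Rpl12 and 93.0 to 95.8% for Rpl5. The pseudogenes with most of these reads were Gm10275, Gm15500, Gm7536, Rps23-ps1 and Rpl31-ps8, each identical to the gene's transcript over the whole aligned stretch. Adding all 1120 matched pseudogenes to their genes moved the log2 polysome over input of 2 of 84 genes by more than 0.1 in Veh and of 3 in Rosi.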

How the results depend on the processing

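Under DESeq2, 1 ribosomal protein gene was higher in input Rosi than in input Veh (2.83% of all genes called). With no count filter 1 was higher and 2 lower (4.73%). With all 12 libraries as deposited 1 was lower there (7.85%). In that setting 38 were lower in polysomes than in input in Veh (58.4% of all genes called in either direction). At a log2 threshold of 1, the numbers higher and lower in polysomes were 0 and 4 in Veh and 0 and 4 in Rosi. Of all genes, 9.67% and 11.3% were called there in Veh and Rosi. With 1 input Rosi library left out, the input Rosi over Veh calls ranged from 0 to 1 higher and 0 to 7 lower. Where 7 were lower, 11.7% of all genes were called. With 1 polysome library left out, the polysome Rosi over Veh calls ranged from 0 to 1 lower, with 1.31% of all genes called where 1 was lower. Over the left-out polysome libraries, polysome over input in Veh ranged from 3 to 9 higher. It ranged from 18 lower (without polysome Veh replicate 3, 52.4% of all genes called) to 37 lower (without polysome Veh replicate 1, 44.7%). With any 1 input or polysome library left out, the medians were −0.19 to 0.02 for input Rosi over Veh and −0.10 to 0.08 for polysome Rosi over Veh. They were −0.35 to −0.10 and −0.07 to 0.09 for polysome over input in Veh and Rosi, and 0.02 to 0.25 for the interaction. The share of each library held by these genes was 15.98 and 15.7% by TPM in input Veh and Rosi and 13.98 and 13.9% in polysome Veh and Rosi, against 5.19, 5.06, 4.57 and 4.51% of reads, and 5.46% of reads in input Rosi with pseudogenes added by sequence, an alternative chosen after seeing the data. The length correlation was −0.073 in Veh and −0.198 in Rosi with transcript length, and −0.25 in Veh with the longest coding length, also added after seeing the data. With a replicate block, 6 genes were higher and 18 lower in polysomes in Veh (45.3% of all genes called). In Rosi they were 14 and 20 (52.2%). No ribosomal protein gene was called in the other comparisons with this block. Of all genes, 1.37% were called there between Rosi and Veh in input, 0.759% in polysomes and 0.0% in the interaction. Deviations of same-numbered libraries correlated at −0.23 to 0.11, against −0.11 to 0.27 for differently numbered ones. With 2 or 3 libraries per group these values cannot show whether same-numbered samples were paired. The paper describes the input as total RNA taken ahead of the fractionation, so an input and a polysome library may share a lysate. The labels do not say which ones do, and the main tests treat all libraries as unpaired. The other settings with 2 or more libraries in each group left these counts within 1.5 times, with the cause of the changes not tested. Input Veh had only 2 libraries.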
